A study of Mus musculus with 9 samples.

Results

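The 5 NF-kB subunit genes Nfkb1, Nfkb2, Rel, Rela and Relb and the 5 IkB genes Nfkbia, Nfkbib, Nfkbid, Nfkbie and Nfkbiz were followed by symbol through a table of 23951 genes in mouse bone marrow-derived mast cells. All 10 symbols were found, and all 10 passed the filter on low values. Antigen libraries came from cells given 0.5 µg/ml DNP-IgE for 18 h and then 50 ng/ml DNP-BSA for 2 h. IgE libraries came from cells given that IgE alone, and untreated libraries from cells given neither. Each group had 3 libraries. All cells were wild type, of C57BL/6 mice, and had been cultured for 4 to 6 weeks after isolation in IL-3 and SCF at 10 ng/ml each. The labels put over 95% of the cells as positive for FcER1, the high-affinity IgE receptor, and CD117. DNP-BSA is albumin that carries the hapten DNP and cross-links the receptor-bound anti-DNP IgE.

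NF-kB factors are dimers of Rel family proteins. In resting cells IkB proteins hold them in the cytoplasm. A signal through the IkB kinase (IKK) complex marks the IkB protein for degradation, and the freed dimer enters the nucleus. The genes of several subunits and IkB proteins are themselves targets of NF-kB, and newly made IkB alpha ends the first wave of activity. In mast cells this route lies downstream of the IgE receptor and feeds the production of cytokines and chemokines.

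All levels below are FPKM, read fragments scaled by transcript length and library depth, so they can be compared between genes. The table gives no read totals. Steps in the low values put the depth at 20.7 to 28.6 M reads in antigen libraries, 32.2 to 39.8 M reads in IgE libraries and 30.1 to 33.7 M reads in untreated libraries. At the lowest depth counting error alone amounts to a coefficient of variation of 4.91% for a 2 kb transcript at 10 FPKM. Among the libraries IgE replicate 3 stood apart most, with an SD of 0.176 for its log2 differences from the other 2 IgE libraries, against 0.105 to 0.129 for the other 8 libraries. Antigen replicate 3 lists a value of 0 for each of the 441 X and Y genes detected in all of the other 8 libraries. The 10 genes lie on chromosomes 3, 7, 11, 12, 16, 17 and 19 (RefSeq, GRCm38.p6), so none of them is among these zeros. The zeros can still reach them through the spread shared by the fit and the adjustment of p over all tested genes. Of 12 mast cell markers 10 reached 1 FPKM, while Cpa3 and Cma1 were listed at 0 in all 9 libraries. What these zeros stand for was not tested. The mast cell markers summed to 16408 to 16869 FPKM in antigen, 14718 to 15557 in IgE and 15839 to 16545 in untreated libraries. Single markers went both ways. Kit averaged 457 FPKM in antigen, 433 FPKM in IgE and 447 FPKM in untreated libraries. Hdc averaged 895 FPKM in antigen, 28.7 FPKM in IgE and 27.1 FPKM in untreated libraries. Ms4a2 averaged 626, 1080 and 1190 FPKM in the same order. Markers of other cell types moved with antigen in places. The 7 stromal markers summed to 298 to 305 FPKM in antigen, 162 to 172 FPKM in IgE and 175 to 180 FPKM in untreated libraries, nearly all of it Pecam1, the 1 gene to reach 1 FPKM, while Col3a1, Pdgfra and Cdh5 were at 0. The summed level of 7 dendritic cell markers was 3.25 to 3.72 FPKM in antigen, 0.376 to 0.494 FPKM in IgE and 0.425 to 0.659 FPKM in untreated libraries, with only Zbtb46 reaching 1 FPKM. The summed level of 11 macrophage and monocyte markers was 59.5 to 61.2 FPKM in antigen, 74.7 to 82.1 FPKM in IgE and 97.5 to 104 FPKM in untreated libraries, with 6 reaching 1 FPKM and Lyz2 the highest. The 4 basophil markers, which cultured mast cells can also express, summed to 954 to 967 FPKM in antigen, 793 to 834 FPKM in IgE and 937 to 979 FPKM in untreated libraries. The 6 erythroid markers, 2 of which reached 1 FPKM, summed to 30.3 to 31.7 FPKM in antigen, 24.4 to 25.8 FPKM in IgE and 17.8 to 20.8 FPKM in untreated libraries. The 7 neutrophil markers, 2 of which reached 1 FPKM, summed to at most 4.74 FPKM in any library. Of 5 B cell markers only Cd79b reached 1 FPKM, with sums of 0.788 to 1.09 FPKM in antigen, 1.86 to 2.20 FPKM in IgE and 2.29 to 2.54 FPKM in untreated libraries and Ms4a1 and Pax5 at 0. Of 7 T and NK cell markers only Ncr1 reached 1 FPKM, and Cd3e and Cd3g were at 0. The part of these markers in the results was not tested. In bulk RNA, fewer cells of a type and less RNA per cell cannot be told apart.

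RefSeq promoter sequences were at hand for 7 of the 10 genes, in 11 entries of the GRCm38.p6 build. Nfkb1, Relb and Nfkbiz had no entry. The 250 bases before each gene start were searched on both strands for the kB consensus, the 10-base site that NF-kB dimers bind. A match was present in 7 of these 11 windows, belonging to 5 genes, and in 7.25% of all 32851 windows of this length. The windows below are shown because they are those of Nfkb2, Rel, Nfkbia, Nfkbid and Nfkbie with a match that lies in the first such entry of each gene. They read 5′ to 3′ on the strand of the gene, with the kB matches in capitals. They come from chr19:46304487-46304736 (plus strand) for Nfkb2, chr11:23770970-23771219 (minus) for Rel, chr12:55492648-55492897 (minus) for Nfkbia, chr7:30422156-30422405 (plus) for Nfkbid and chr17:45555450-45555699 (plus) for Nfkbie.
Nfkb2: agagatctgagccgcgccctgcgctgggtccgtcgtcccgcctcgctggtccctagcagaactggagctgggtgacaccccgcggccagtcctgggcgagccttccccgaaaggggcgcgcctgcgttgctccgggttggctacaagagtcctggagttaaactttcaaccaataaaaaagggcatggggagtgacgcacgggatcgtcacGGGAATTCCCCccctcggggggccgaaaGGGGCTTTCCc
Rel: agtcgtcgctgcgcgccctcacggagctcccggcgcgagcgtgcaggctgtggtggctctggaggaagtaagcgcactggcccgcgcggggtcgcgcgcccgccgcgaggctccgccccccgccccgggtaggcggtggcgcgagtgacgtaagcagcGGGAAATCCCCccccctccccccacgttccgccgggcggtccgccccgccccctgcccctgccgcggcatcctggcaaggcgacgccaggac
Nfkbia: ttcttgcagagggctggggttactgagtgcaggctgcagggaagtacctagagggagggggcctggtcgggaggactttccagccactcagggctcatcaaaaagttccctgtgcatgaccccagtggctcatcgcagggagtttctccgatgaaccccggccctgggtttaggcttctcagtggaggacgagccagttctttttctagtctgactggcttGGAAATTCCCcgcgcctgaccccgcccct
Nfkbid: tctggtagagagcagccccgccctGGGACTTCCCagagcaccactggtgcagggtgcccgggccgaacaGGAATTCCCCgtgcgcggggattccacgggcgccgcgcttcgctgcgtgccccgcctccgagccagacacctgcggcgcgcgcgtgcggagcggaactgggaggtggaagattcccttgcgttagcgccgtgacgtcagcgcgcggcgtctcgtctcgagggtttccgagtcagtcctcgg
Nfkbie: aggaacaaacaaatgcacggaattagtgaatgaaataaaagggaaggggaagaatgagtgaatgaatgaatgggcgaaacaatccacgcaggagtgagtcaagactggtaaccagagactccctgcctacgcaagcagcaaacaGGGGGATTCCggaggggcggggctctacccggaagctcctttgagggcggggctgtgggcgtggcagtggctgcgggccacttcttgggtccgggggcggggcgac
Nfkb2 held matches beginning 39 and 11 bases before its start, and Nfkbid held matches 226 and 181 bases before its start. The single match began 92 bases before the start in Rel, 29 in Nfkbia and 106 in Nfkbie. Overlapping matches were joined, which gives the stretches of 11 bases in Rel and, at 39 bases, in Nfkb2. The other entries of Nfkb2 each held 1 match, and the windows of Rela, Nfkbib and the other entries of Nfkbid held none. The core of NFAT sites, GGAAA, lay inside 4 of the 9 matched stretches, among them those of Rel and Nfkbia. Counted over whole windows, it was present in all of the 11 except those of Nfkbie and Rela, and in 55.6% of all 32851 windows. The AP-1 motif TGANTCA was found in windows of Nfkbie and Nfkb2, and in 6.75% of all windows. A match describes the letters only, and no binding was measured here.

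Antigen against IgE asks how the family responds to receptor cross-linking at 2 h. Every one of the 10 genes rose, by 1.43-fold for Rela to 21.7-fold for Nfkbid. Among all 10890 tested genes 71.1% were called in this comparison, 36.2% higher and 34.9% lower, at limma's Benjamini-Hochberg adjusted p under 0.05. All 10 genes also had their 3 antigen values above their 3 IgE values, which held for 37.1% of tested genes, against 37% with the antigen range below. The sizes of the rise ranged widely. Nfkbid, Relb and Nfkb2 were 12th, 27th and 41st of the 10890 genes by log2 fold change, while Nfkbie and Rela were 1356th and 1838th.

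**Figure D1:**
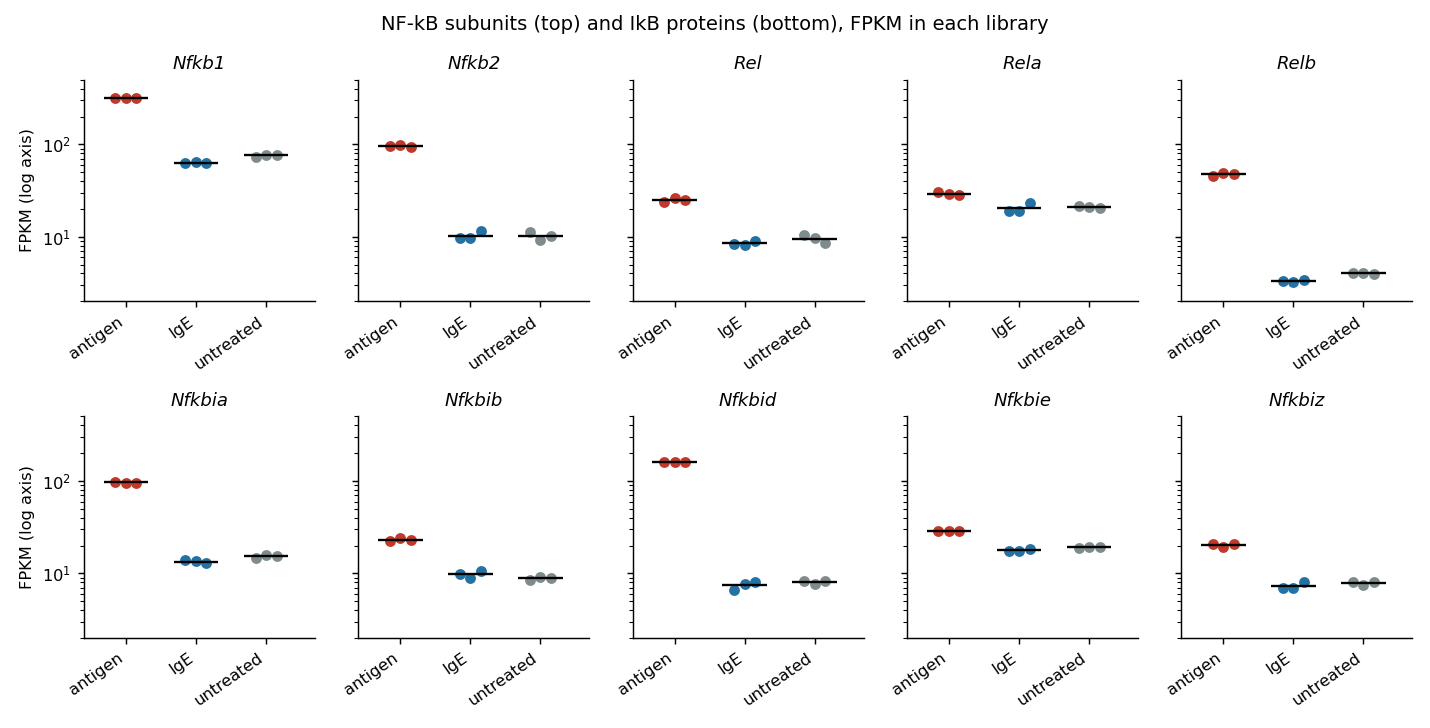
FPKM of each gene in each library on a log axis, with the subunits in the upper row and the IkB proteins in the lower row; points are libraries and lines are group means (n = 3). In all 10 panels the antigen points lie above both other groups, with the widest gap for Nfkbid (161 to 162 FPKM with antigen, against 6.57 to 7.999 with IgE) and the narrowest for Rela.

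The precursor subunit genes were among the strongest risers. Nfkb1, whose product is trimmed to the small partner subunit of the classical dimer, had 316, 314 and 318 FPKM in antigen libraries, against 63.1, 64.1 and 62.8 FPKM in IgE libraries. The difference of 4.99-fold (log2 2.30 on the FPKM + 1 scale, SE 0.0308, limma adjusted p = 5.00e-10) is far larger than the spread within either group. Nfkb2, the precursor of the alternative pathway, had 96.0, 97.8 and 92.7 FPKM in antigen libraries, against 9.60, 9.61 and 11.6 FPKM in IgE libraries. It rose 9.30-fold (log2 3.10, SE 0.0834, adjusted p = 1.23e-08), with the groups well apart although IgE replicate 3 was the highest of its group. Exons of Nfkb2 overlap 299 bases of Psd on the opposite strand in the GENCODE M21 annotation, and Psd averaged 1.32 FPKM in antigen and 0.241 FPKM in IgE libraries. They also overlap 531 bases of the noncoding RNA AC114539.1 on the opposite strand, for which no FPKM is listed. Use of strand is not given in the sources used here, so reads of such pairs may be mixed.

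Relb, the partner of the processed Nfkb2 product, had the largest rise among the subunits. It had 45.2, 48.8 and 47.5 FPKM in antigen libraries, against 3.34, 3.25 and 3.44 FPKM in IgE libraries, a 14.1-fold rise (log2 3.47, SE 0.0394, adjusted p = 2.38e-10). The pseudocount of 1 lowers the log2 value of a gene that starts this low, and with a pseudocount of 0.1 it was 3.78. Rel, the c-Rel subunit, had 23.5, 26.5 and 24.8 FPKM in antigen libraries, against 8.44, 8.21 and 9.03 FPKM in IgE libraries. Its rise of 2.91-fold (log2 1.44, SE 0.0711, adjusted p = 3.92e-07) kept the groups apart. Rela, the main activating subunit of the classical dimer, rose least. It had 30.6, 28.8 and 28.1 FPKM in antigen libraries, against 19.0, 18.8 and 23.2 FPKM in IgE libraries, or 1.43-fold (log2 0.50, SE 0.0756, adjusted p = 0.000385). IgE replicate 3 was the nearest IgE library to the antigen range, and without it the log2 change was 0.60.

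Among the cytoplasmic IkB genes Nfkbia rose most. Nfkbia encodes IkB alpha, the fast feedback inhibitor, and had 98.8, 94.7 and 96.0 FPKM in antigen libraries, against 13.8, 13.5 and 12.9 FPKM in IgE libraries. It rose 7.19-fold (log2 2.76, SE 0.0390, adjusted p = 5.99e-10), and the groups were far apart. Nfkbib, for IkB beta, had 22.6, 23.9 and 23.0 FPKM in antigen libraries, against 9.97, 8.90 and 10.7 FPKM in IgE libraries, a rise of 2.35-fold (log2 1.16, SE 0.0606, adjusted p = 5.57e-07). Exons of Nfkbib overlap those of Sirt2 by 42 bases and of Ccer2 by 314 bases on the opposite strand, and Sirt2 averaged 55.2 FPKM in antigen and 47.9 FPKM in IgE libraries. Nfkbie, for IkB epsilon, had 28.5, 28.9 and 28.7 FPKM in antigen libraries, against 17.6, 17.4 and 18.4 FPKM in IgE libraries. Its 1.61-fold rise (log2 0.66, SE 0.0314, adjusted p = 3.10e-07) was small but much larger than the spread.

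The nuclear IkB genes differed from each other in the size of the rise. Nfkbid encodes IkB NS, a nuclear IkB protein that binds Nfkb1 homodimers on DNA. It had 161, 162 and 161 FPKM in antigen libraries, against 6.57, 7.76 and 7.999 FPKM in IgE libraries, which is the largest change among the 10 genes at 21.7-fold (log2 4.27, 95% confidence interval 4.12 to 4.42, adjusted p = 6.75e-10). Nfkbiz encodes IkB zeta, a nuclear cofactor for secondary NF-kB targets such as Il6. It had 20.8, 19.2 and 20.7 FPKM in antigen libraries, against 6.90, 7.04 and 8.09 FPKM in IgE libraries, and rose 2.75-fold (log2 1.35, 95% confidence interval 1.20 to 1.49, adjusted p = 2.58e-07). These intervals cover the spread between libraries, which may be technical, since no label says that replicates came from separate cultures or animals. Under each of the 19 alternative settings all 10 genes stayed called higher in this comparison.

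**Figure D2:**
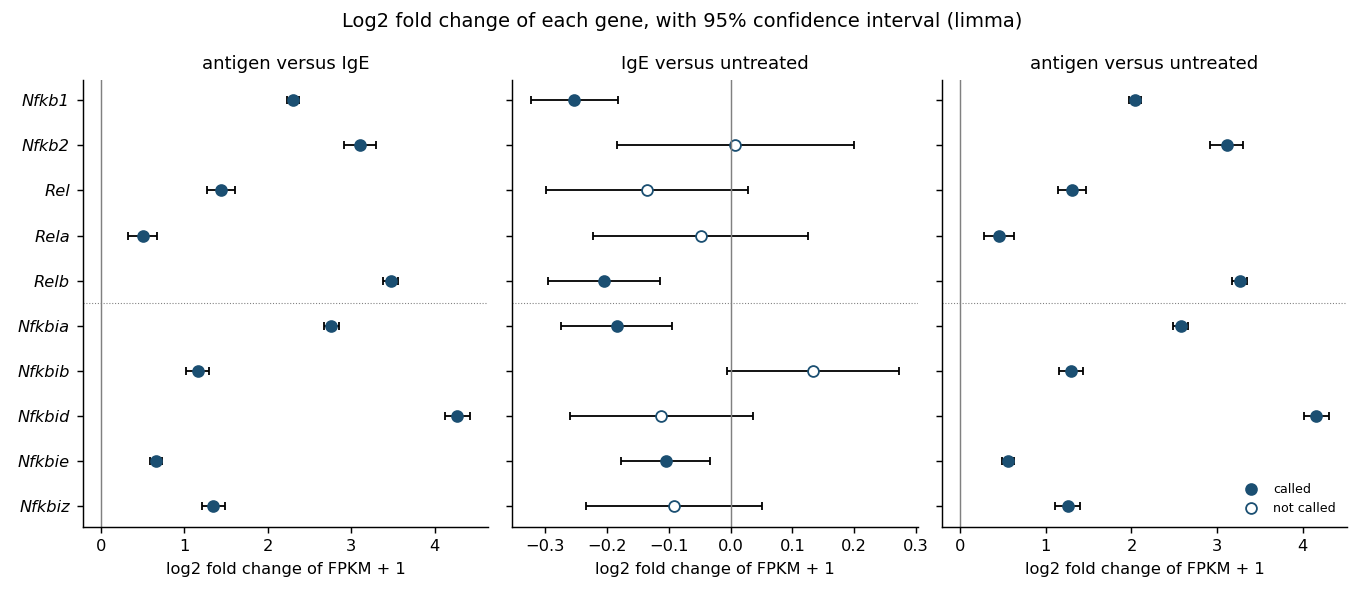
Log2 fold change of FPKM + 1 for each gene in the 3 comparisons, with 95% confidence intervals from limma; filled points were called and open points were not, and the x axis of the middle panel spans a much smaller range than the outer ones. With antigen all 10 points lie right of 0, between 0.50 and 4.27 against IgE, while with IgE alone 9 of the 10 points lie within 0.21 of 0, and Nfkb1 is at -0.25.

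The rises changed the make-up of both families. Among the subunits, Nfkb1 held the largest share of the summed FPKM in each group, with 61.6% ± 0.721 in antigen, 59.9% ± 2.49 in IgE and 62.8% ± 1.90 in untreated libraries (SD, n = 3 each, as are the shares that follow). Rela held 5.69% ± 0.259 in antigen libraries, 19.2% ± 1.65 in IgE libraries and 17.4% ± 0.513 in untreated libraries. Relb held 9.21% ± 0.324 in antigen, 3.16% ± 0.0573 in IgE and 3.33% ± 0.0548 in untreated libraries, and Nfkb2 held 18.6% ± 0.447 in antigen, 9.68% ± 0.749 in IgE and 8.47% ± 0.840 in untreated libraries. By level the order was Nfkb1, Nfkb2, Relb, Rela and Rel with antigen, and Nfkb1, Rela, Nfkb2, Rel and Relb in the IgE and untreated libraries. Ranges of neighbours in these orders did not overlap, except those of Nfkb2 and Rel in untreated libraries, 9.26 to 11.2 FPKM and 8.57 to 10.3 FPKM.

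Among the IkB genes, Nfkbid made up 48.9% ± 0.358 of the summed IkB FPKM in antigen libraries, 13.3% ± 1.19 in IgE libraries and 13.6% ± 0.610 in untreated libraries. Nfkbie, the most abundant IkB transcript without antigen, held 8.70% ± 0.102 in antigen, 31.9% ± 0.203 in IgE and 32.3% ± 0.0278 in untreated libraries. The share of Nfkbia differed less, at 29.2% ± 0.491 in antigen, 24.1% ± 1.63 in IgE and 25.9% ± 0.772 in untreated libraries. The order by level was Nfkbid, Nfkbia, Nfkbie, Nfkbib and Nfkbiz with antigen, and Nfkbie, Nfkbia, Nfkbib, Nfkbid and Nfkbiz in the other groups, where the ranges of Nfkbid and Nfkbiz overlapped.

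**Figure D3:**
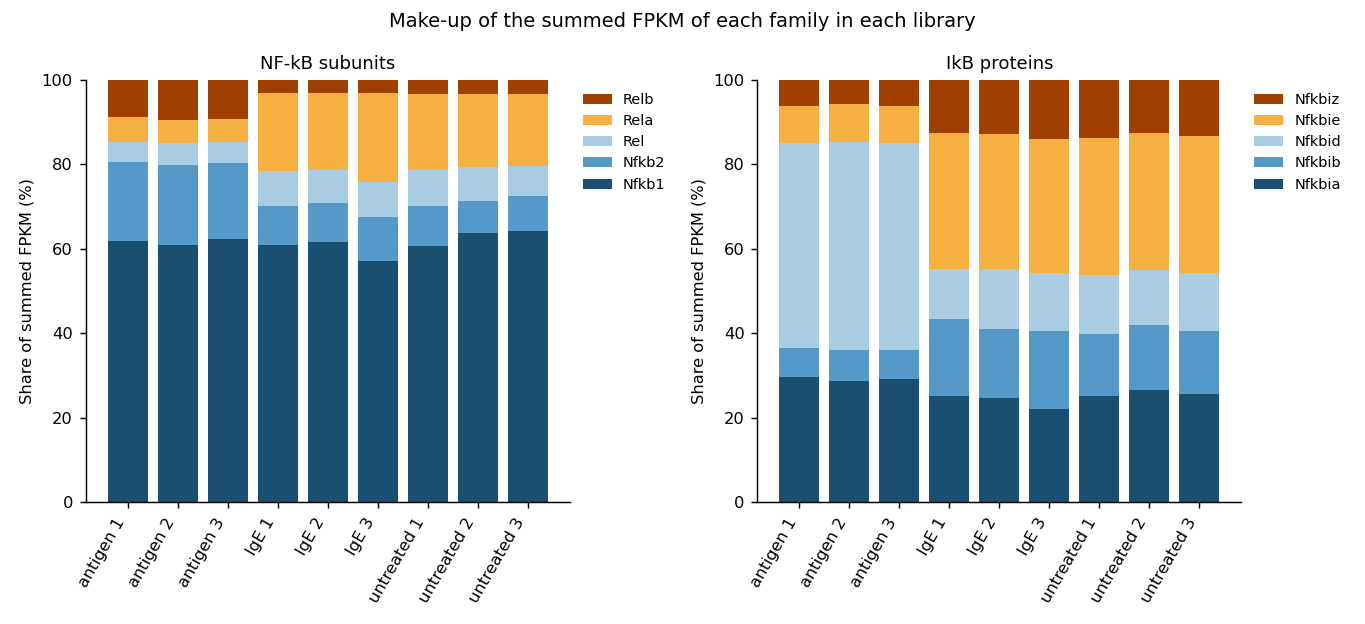
Share of each gene in the summed FPKM of the 5 subunits (left) and of the 5 IkB proteins (right), in percent, with 1 bar per library. The replicates of a group look alike, and the Nfkbid part of the right panel is 48.9% on average with antigen against 13.3% with IgE.

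The summed IkB level was 330.02 ± 1.51 FPKM in antigen, 55.8 ± 1.92 FPKM in IgE and 59.5 ± 0.981 FPKM in untreated libraries. The summed subunit level was 512 ± 2.60 FPKM in antigen, 106 ± 3.64 FPKM in IgE and 120.5 ± 0.285 FPKM in untreated libraries. The ratio of IkB to subunit FPKM was 0.649, 0.638 and 0.645 in antigen libraries, against 0.530, 0.525 and 0.527 in IgE libraries and 0.487, 0.492 and 0.501 in untreated libraries. The 3 groups did not overlap, and each pair gave p = 0.1 in a two-sided exact permutation test, the smallest p that 3 against 3 libraries allow. The direction of the antigen comparisons changed when the nuclear IkB genes Nfkbid and Nfkbiz were left out together. Neither was left out alone. Their shares of the summed IkB FPKM went opposite ways. Nfkbid held 48.9% in antigen and 13.3% in IgE libraries, and Nfkbiz held 6.12% in antigen and 13.1% in IgE libraries. Without Nfkbid and Nfkbiz the ratio was 0.289 ± 0.00359 in antigen, 0.388 ± 0.0103 in IgE and 0.361 ± 0.00824 in untreated libraries, so that antigen was lowest, while IgE stayed above untreated (exact permutation p = 0.1 for each pair). Without Nfkb1 and Nfkb2 the ratio was 3.26 ± 0.0945 in antigen, 1.74 ± 0.0956 in IgE and 1.72 ± 0.099996 in untreated libraries, and the IgE and untreated libraries were no longer apart (exact permutation p = 0.9). These are transcript levels, and protein was not measured.

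IgE against untreated asks what 18 h of IgE does without antigen. Changes were small: 4 of the 10 genes fell, at 0.834 to 0.926 of the untreated mean, and 0 rose, also at an unadjusted limma p under 0.05. In this comparison 27.5% of tested genes were called, 13.1% lower and 14.5% higher. The 4 genes were those whose IgE range lay below the untreated one, as in 21.8% of tested genes, against 21.3% with the IgE range above. Nfkb1 had the IgE values given above, against 72.9, 76.8 and 77.4 FPKM in untreated libraries, and fell by 0.25 on the log2 scale (SE 0.0308, limma adjusted p = 0.00103). Relb, with 3.25 to 3.44 FPKM in IgE libraries and 4.02, 4.07 and 3.95 FPKM in untreated libraries, fell by 0.21 (adjusted p = 0.00701). These falls left no overlap between groups. Nfkbia, with 12.9 to 13.8 FPKM in IgE libraries and 14.8, 15.8 and 15.6 FPKM in untreated libraries, fell by 0.18 (adjusted p = 0.0106). Nfkbie averaged 17.8 ± 0.535 FPKM in IgE and 19.2 ± 0.328 FPKM in untreated libraries (log2 -0.11, adjusted p = 0.0391), and this call was lost under 13 of the 19 alternative settings, with adjusted p between 0.0107 and 0.126 over them.

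The other 6 genes did not pass the test and had overlapping ranges. Nfkb2 averaged 10.3 ± 1.16 FPKM in IgE and 10.2 ± 0.993 FPKM in untreated libraries (log2 0.01, 95% confidence interval -0.18 to 0.20). Rel averaged 8.56 ± 0.422 FPKM in IgE and 9.53 ± 0.892 FPKM in untreated libraries (log2 -0.14, interval -0.30 to 0.03). Nfkbid averaged 7.44 ± 0.765 FPKM in IgE and 8.10 ± 0.376 FPKM in untreated libraries (log2 -0.11, interval -0.26 to 0.04). Rela averaged 20.4 ± 2.47 FPKM in IgE and 21.01 ± 0.568 FPKM in untreated libraries (log2 -0.05, interval -0.22 to 0.13). These intervals span 0 and leave room for a fall of up to 0.30 on the log2 scale in Rel. Nfkbiz averaged 7.35 ± 0.652 FPKM in IgE and 7.88 ± 0.306 FPKM in untreated libraries (log2 -0.09, interval -0.23 to 0.05), and Nfkbib 9.85 ± 0.898 FPKM in IgE and 8.87 ± 0.280 FPKM in untreated libraries. Single IgE libraries set the calls of 3 further genes. Without IgE replicate 3, Rela and Nfkbiz were called lower (log2 -0.14 and -0.16, limma adjusted p = 0.0351 and 0.0414, where all alternatives gave 0.0351 to 0.993 and 0.0414 to 0.621), which made 6 genes lower in place of 4. Without IgE replicate 2, Nfkbib was called higher (log2 0.20, adjusted p = 0.0308, where all alternatives gave 0.0308 to 0.327), against 0.13 (adjusted p = 0.139) with all libraries.

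Antigen against untreated shares its antigen libraries with the first comparison. All 10 genes rose here too, where 71.7% of tested genes were called, 37.2% higher and 34.4% lower. Their antigen ranges lay above the untreated ones, as in 40.2% of tested genes, against 38% with the antigen range below. The folds were 19.9 for Nfkbid, 11.8 for Relb, 9.36 for Nfkb2, 6.27 for Nfkbia and 4.17 for Nfkb1. Those of Rel, Nfkbib and Nfkbiz were 2.62, 2.61 and 2.56, and the smallest were 1.49 for Nfkbie and 1.39 for Rela. For genes that were lower with IgE alone, the fold over untreated cells is by arithmetic smaller than the fold over IgE cells. These folds were 4.17 and 4.99 for Nfkb1, 11.8 and 14.1 for Relb, 6.27 and 7.19 for Nfkbia, and 1.49 and 1.61 for Nfkbie.

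**Figure D4:**
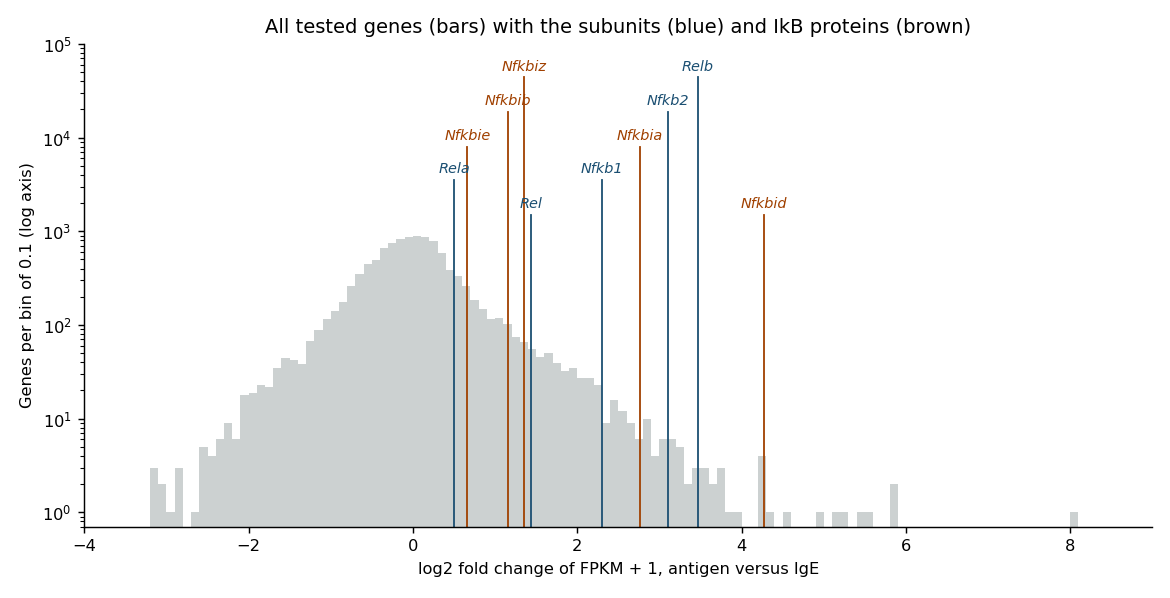
Number of tested genes per bin of 0.1 of the log2 fold change, antigen versus IgE, on a log axis, with a line for each subunit (blue) and IkB protein (brown). The 10 lines run from 0.50 for Rela, inside the bulk of the genes, to 4.27 for Nfkbid in the right tail; 2 genes listed at 0 in 1 of the groups (Ftl1 and Eef1a1) lie beyond the axis.

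The kinases that act on IkB proteins changed unevenly with antigen. Of 13 listed genes of the IKK and upstream kinases and scaffolds, 6 rose and 3 fell against IgE, with a median log2 change of 0.08. Over all tested genes 36.2% were called higher and 34.9% lower, and the median was -0.01. The antigen counts of this list, and those of the lists below, are to be read beside these shares. Counts for IgE against untreated libraries are to be read beside 14.5% of all tested genes called higher and 13.1% lower. Map3k14, the kinase NIK of the alternative pathway, had 11.6, 11.3 and 10.7 FPKM in antigen libraries and 1.95, 1.91 and 1.99 FPKM in IgE libraries (5.75-fold, adjusted p = 3.61e-09). Map3k8, the kinase Tpl2, which is held by the Nfkb1 precursor, averaged 4.99 ± 0.723 FPKM in antigen and 1.03 ± 0.123 FPKM in IgE libraries (adjusted p = 1.57e-06). Tank, a scaffold of the IKK-related kinases, rose 1.62-fold, and Ikbke, one of those kinases, fell to 5.56 ± 0.0610 FPKM in antigen libraries, against 8.58 ± 0.181 FPKM in IgE libraries. The catalytic IKK genes are given for their role, after their values were seen. Ikbkb fell slightly, to 18.4 ± 0.541 FPKM in antigen libraries, against 20.4 ± 0.621 FPKM in IgE libraries (adjusted p = 0.00547), and Chuk had 19.9 ± 0.789 FPKM in antigen and 18.8 ± 1.46 FPKM in IgE libraries (adjusted p = 0.233). The X-linked Ikbkg and Tab3 were listed at 0 in antigen replicate 3, and with that value missing both were called higher (log2 0.26 and 0.40, adjusted p = 0.000759 and 0.00200), which gives 8 rises in the list. The median of 0.08 given above includes these zeros, with log2 changes of -1.11 for Ikbkg and -0.32 for Tab3. Both genes lie below that median with the zeros and above it with that value missing. The median was not computed again. With IgE alone, Map3k14 and Map3k8 fell by 0.32 and 0.46 on the log2 scale (adjusted p = 0.00158 and 0.00991), and 0 genes of the list rose by limma, against 1 at an unadjusted p under 0.05 and 1 called without IgE replicate 3.

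Of 19 adaptors between receptors and IKK, 10 rose and 6 fell with antigen against IgE, beside 36.2% and 34.9% of all tested genes, with a median log2 change of 0.26. The TRAF adaptors led the rises. Traf1, a signal adaptor of TNF receptors, averaged 9.14 ± 0.513 FPKM in antigen and 0.750 ± 0.116 FPKM in IgE libraries. Traf1 was the 1 gene of this list to reach 1 FPKM in the antigen libraries alone, so it entered the test only through them. Traf3, which keeps NIK low, averaged 16.5 ± 0.562 FPKM in antigen and 4.94 ± 0.139 FPKM in IgE libraries, and Traf2 rose 2.42-fold (adjusted p = 8.53e-09 for Traf3 and 1.23e-08 for Traf1 and Traf2). Irak4, a kinase of the Toll-like and IL-1 receptor route, fell to 10.4 ± 0.122 FPKM in antigen libraries, against 20.3 ± 0.188 FPKM in IgE libraries (adjusted p = 3.47e-08). In IgE against untreated libraries 2 adaptors rose and 4 fell, beside 14.5% and 13.1% of all tested genes. Among them were Prkcb, a protein kinase C, up by 0.25, and Malt1, the paracaspase, down by 0.17 on the log2 scale.

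Of 12 listed genes of IkB ubiquitination and degradation, not all of which add ubiquitin, 5 rose and 0 fell with antigen against IgE. The median log2 change was 0.13. The rises are near the 36.2% of all tested genes that were called higher, against 34.9% called lower. The rises included the substrate receptors of the ligase. Fbxw11 had 34.3, 35.5 and 36.2 FPKM in antigen libraries, against 16.2, 16.3 and 17.1 FPKM in IgE libraries, and Btrc averaged 5.38 ± 0.176 FPKM in antigen and 3.51 ± 0.169 FPKM in IgE libraries (adjusted p = 3.67e-08 and 1.14e-05). Ube2d3, a ubiquitin-conjugating enzyme, rose 1.23-fold and Usp15, a deubiquitinase, 1.19-fold. By limma 0 genes fell, against 1 at an unadjusted p under 0.05, 3 called without IgE replicate 3 and 1 called with the X and Y zeros missing. With IgE alone 3 rose and 0 fell (1 at an unadjusted p under 0.05), beside 14.5% and 13.1% of all tested genes. Ube2m and Cdc34, of the neddylation and ubiquitin routes, rose by 0.25 and 0.29 on the log2 scale.

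Of 14 deubiquitinases and feedback inhibitors, 9 rose and 2 fell with antigen against IgE, beside 36.2% and 34.9% of all tested genes, and the median log2 change was 0.72. Tnfaip3, the ubiquitin-editing inhibitor of IKK signalling, rose 5.14-fold to 85.9 ± 0.725 FPKM in antigen libraries (adjusted p = 7.09e-10). Tnip3, which binds it, averaged 31.1 ± 0.501 FPKM in antigen and 1.11 ± 0.259 FPKM in IgE libraries, Tax1bp1 rose 3.70-fold and Otud7b, a deubiquitinase of Traf3, 2.64-fold. With IgE alone 6 fell and 1 rose, beside 13.1% and 14.5% of all tested genes. Tnip2 and Birc3 fell by 0.30 and 0.31 on the log2 scale (adjusted p = 0.00192 and 0.00207).

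Other IkB-like and NF-kB binding genes rose in 8 of 13 tested members and fell in 3 with antigen against IgE, beside 36.2% and 34.9% of all tested genes, with a median log2 change of 0.21. The X-linked Nkrf and Nkap were listed at 0 in antigen replicate 3. With that value missing Nkrf was called higher and Nkap lower (log2 0.21 and -0.24, adjusted p = 0.0142 and 0.00253), which gives 9 rises and 4 falls. Bcl3, a nuclear IkB protein that binds Nfkb1 and Nfkb2 homodimers, averaged 8.42 ± 0.197 FPKM in antigen and 0.710 ± 0.234 FPKM in IgE libraries (11.9-fold, log2 2.47, adjusted p = 8.97e-08). Bcl3 was the 1 gene of this list to reach 1 FPKM in the antigen libraries alone, so it entered the test only through them. Nfkbil1, an IkB-like gene, fell to 7.59 ± 0.382 FPKM in antigen libraries, against 11.5 ± 0.349 FPKM in IgE libraries. Xpo1, the exportin that carries IkB alpha and its cargo out of the nucleus, fell to 20.04 ± 0.900 FPKM in antigen libraries, against 40.6 ± 2.21 FPKM in IgE libraries (adjusted p = 2.34e-06), and Kpna3, an importin alpha, rose 1.48-fold. With IgE alone 4 of the 13 rose and 1 fell, beside 14.5% and 13.1% of all tested genes. Without IgE replicate 3 the falls numbered 4.

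Of 37 genes described as NF-kB targets in other cells, 26 were tested. With antigen against IgE 20 of these rose and 4 fell, beside 36.2% and 34.9% of all tested genes. A gene that is low without antigen enters the test only through its antigen values, as 5 of these 26 did. All 5 are among the 20 rises, so these counts describe the tested genes and not the list. Tnfrsf9, a costimulatory TNF receptor, averaged 128 ± 1.18 FPKM in antigen and 2.74 ± 0.250 FPKM in IgE libraries, and Ccl4, a chemokine, 496 ± 19.96 FPKM in antigen and 7.47 ± 0.685 FPKM in IgE libraries. Tnfrsf1b, a receptor of TNF, rose 6.84-fold. The 4 that fell were Irf1, an interferon regulatory factor, Relt, a TNF receptor family member, Ebi3, a cytokine chain, and Plau, the urokinase, with log2 changes of -1.21, -1.03, -0.34 and -0.09; they are named here after their values were seen. With IgE alone 3 rose and 6 fell, beside 14.5% and 13.1% of all tested genes. Tnf averaged 4.49 ± 0.338 FPKM in IgE libraries, against 1.87 FPKM in untreated libraries (log2 0.94, adjusted p = 0.000183), while Il1b averaged 13.7 FPKM in IgE and 22.7 FPKM in untreated libraries (adjusted p = 0.000912).

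**Figure D5:**
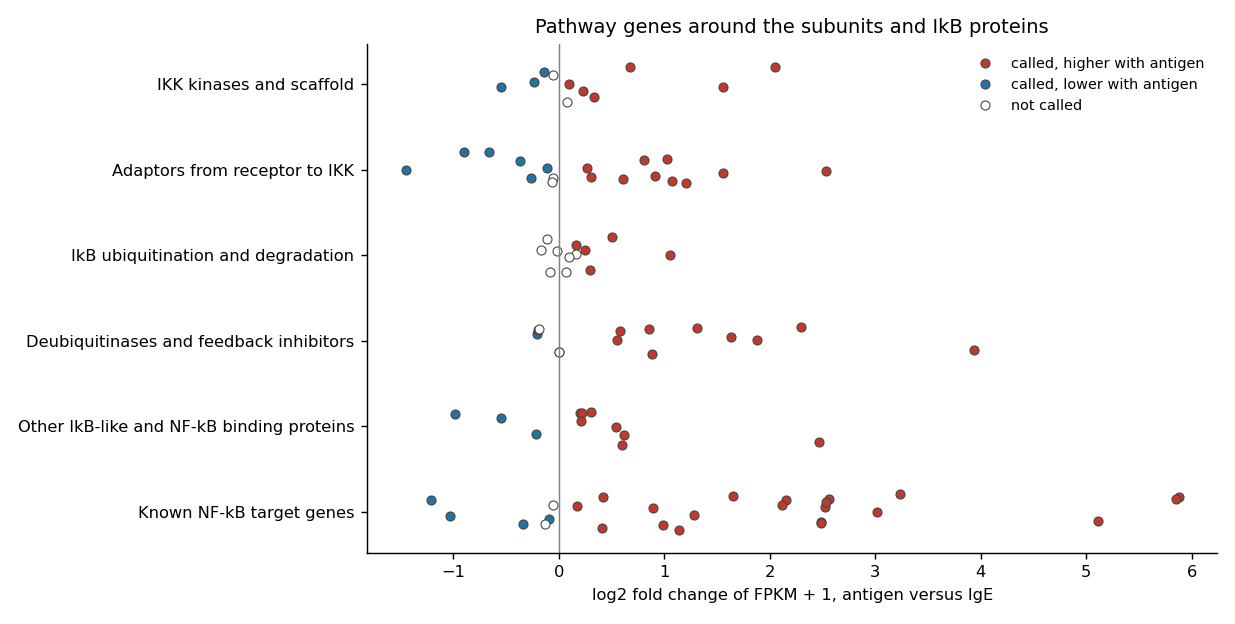
Log2 fold change of FPKM + 1, antigen versus IgE, of the tested genes of 6 lists around the family; each point is a gene, red where called higher, blue where called lower and white where not called, and X-linked genes are left out. Points lie on both sides of 0 in each list, with called falls in 5 of the 6, and the longest right tail is that of the target genes.

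The genes with the most similar profile over the 9 libraries were found by Euclidean distance between log2(FPKM + 1) values centred on their mean. No family member was among the 2 nearest genes of another. For Nfkbid these were Dusp5, a phosphatase of ERK, and Nr4a3, an orphan nuclear receptor, at distances of 0.313 and 0.552. For Relb they were Skil, a corepressor of SMAD factors, and Loxl2, a lysyl oxidase, at 0.172 and 0.272. For Nfkb2 they were D8Ertd82e and Baiap2 at 0.161 and 0.315. For Nfkbia they were Irf5, an interferon regulatory factor, and Plaur, the urokinase receptor, at 0.196 and 0.225, and for Nfkb1 they were Zc3h12c, of the Regnase family of RNases, and Fam107b at 0.117 and 0.161. The weaker risers sat nearest to other genes. Rel lay nearest to Etv3, an ETS factor, and Itgav, an integrin chain, at 0.201 and 0.204, and Nfkbiz nearest to Orai1, a calcium channel, and Epb4.1l1 at 0.147 and 0.159. Rela lay nearest to Plekhg3 and Ncoa3, a nuclear receptor coactivator, at 0.119 and 0.126, and Nfkbie nearest to Lrch3 and Specc1l at 0.0606 and 0.0675. A small distance says only that the profiles look alike over these libraries. Nr4a3 and D8Ertd82e reached 1 FPKM in the antigen libraries alone, so they entered the search only through them. Nr4a3 averaged 23.0 FPKM in antigen and 0.0210 FPKM in IgE libraries, and D8Ertd82e 9.89 and 0.287 FPKM. The pseudocount of 1 understates rises from such low values, so the distances of these genes depend on it.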

How the data were processed

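The deposited values are FPKM per gene and library, as computed by the authors, in 1 table with 3 libraries in each of 3 groups. The submitters' processing notes name TopHat2 2.0.12, Bowtie 0.12.7 and the mm9 build. Which program and annotation gave the FPKM, and whether strand was used, is not given in the sources used here. Columns were matched to samples by name.

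A gene was tested if 3 or more of the 9 libraries reached 1 FPKM, as 10890 did. All 9 libraries entered 1 fit of log2(FPKM + 1) by limma 3.58.1 (R 4.3.3) without covariates, each group having its own coefficient and the prior a trend with level. Tests were two-sided, and p-values were adjusted by Benjamini-Hochberg over all tested genes of a comparison. Log2 changes carry the pseudocount of 1, which understates those of low genes, and folds are ratios of mean FPKM. Errors after ± are SD over 3 libraries. The method was tested on simulated data.

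The 10 genes and the pathway lists were chosen with earlier results of these data known. Named genes were all 10 members, up to 4 called genes per list with the smallest adjusted p (up to 2 in the other comparisons) or the 2 most abundant where none was called, the 2 nearest profiles per member, and cell type markers. Other list genes given were chosen after their values were seen. No label gives separate cultures, so p-values measure the spread between these libraries. Depth was estimated from the steps that whole reads leave in low FPKM values of genes with a single transcript. Chromosomes and promoters are from RefSeq (GRCm38.p6), which differs from mm9. Protein sequences were not used here. The nearest profiles of Nfkbib are not reported here.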

Additional observations from a re-analysis of the deposited data

How the results depend on the processing

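With 10 other settings (pseudocount 0.1 or 0.5, no filter, median centring, quantile normalization, trimmed mean scaling, no trend, only the 2 groups in the fit, replicate block, X and Y zeros of antigen replicate 3 missing) and each of the 9 libraries left out in turn, antigen against IgE and antigen against untreated kept 10 members higher and 0 lower. In IgE against untreated, 3 to 6 members were lower and 0 to 1 higher with a library left out, and the 13 lost calls were those of Nfkbie. The genes called there numbered 2999, and 1896 to 3889 with a library left out: 1896 without untreated replicate 1 and 1999 without untreated replicate 3. With the replicate block, 7553, 2500 and 7620 genes were called in the antigen-IgE, IgE-untreated and antigen-untreated comparisons, 3 members were lower with IgE, and Nfkbie had an adjusted p of 0.0657. Same-numbered libraries did not deviate together (r of -0.188 to 0.132), and 0, 0 and 3 of 6 libraries correlated best with their own number in the 3 comparisons, so the numbers are not taken as pairs. The difference in the IkB to subunit ratio was 0.116, 0.0339 and 0.150 in the same order of comparisons. Without Nfkbiz and Nfkbid it was -0.0985 for antigen against IgE and -0.0714 for antigen against untreated, so these reversed, and 0.0271 for IgE against untreated, which did not. Without Nfkb1 and Nfkb2 it was 1.52, 0.0125 and 1.54, and the exact permutation p for IgE against untreated was 0.9 in place of 0.1. The cause was not tested. The settings for the pathway lists were chosen after seeing the data. Depth limits the low genes: a 2 kb transcript at 1 FPKM has a coefficient of variation of 15.5% by counting error alone at the lowest depth.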
